A study of Mus musculus with 6 samples.

Results

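Collagen genes were followed in colon tumors of mice that lack the M3 muscarinic receptor. Members were all genes whose symbol in the array annotation has the form Col, a number, the letter a and a number, which gave 41 genes read by 91 probes, out of 19057 genes named on the array. The 2 groups were 3 *Chrm3*-/- tumors, in which the gene of the M3 receptor is deleted, and 3 WT tumors, with tissue from a different mouse on each Illumina BeadChip. By the labels all mice had the same mixed background (129S6/SvEvTac X CF1) and an age of 7 months. The sample descriptions also carry codes of unstated meaning whose first part differs between the genotypes, and whatever that part marks cannot be told apart from genotype. By the methods all were male and all had been given weekly injections of azoxymethane (AOM), a carcinogen that acts on the colon. Both groups thus carried the same treatment. In the paper, colon tumors of *Chrm3*-/- mice were fewer and smaller than those of WT mice. They comprised about as many adenomas as adenocarcinomas, whereas most WT tumors were adenocarcinomas. The paper does not give the size or stage of the tumors on the arrays, so these cannot be told apart from genotype. Whole tumor tissue was used, and fewer cells of a type and less RNA per cell cannot be told apart in such bulk samples.

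Collagens are secreted proteins of 3 chains wound into a triple helix. Fibrillar collagens pack into the fibrils that give tissue its strength, and fibroblasts are their main source. Collagen IV forms the sheet on which epithelial and endothelial cells rest, collagen VIII and X form other networks, collagen VI forms beaded filaments, and fibril-associated collagens sit on the surface of fibrils. The multiplexins XV and XVIII lie in basement membrane zones, collagen VII anchors the basement membrane to the tissue below, and transmembrane collagens stay in the cell membrane. In tumors of the colon much of the stroma is built of these proteins.

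The bases just upstream of the annotated starts of 4 of these genes are printed because they lie in different classes and differed in their fold changes below, *Col1a2* and *Col3a1* from the fibrillar class, *Col18a1* from the multiplexins and *Col8a1* as a network collagen whose values overlapped between the genotypes. The sequences are the 200 bases before the gene's first annotated start, from RefSeq on build GRCm38.p6, written 5′ to 3′ on the strand of the gene. Capitals mark matches to a CCAAT box (CCAAT), a GC box (GGGCGG) or a TATA box (TATAAA) on either strand.
Col1a2 (chr6:4505418-4505617, plus strand): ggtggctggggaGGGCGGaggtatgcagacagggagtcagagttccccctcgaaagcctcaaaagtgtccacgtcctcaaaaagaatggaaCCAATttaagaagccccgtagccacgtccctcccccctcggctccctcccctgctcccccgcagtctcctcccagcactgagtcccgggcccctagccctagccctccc
Col3a1 (chr1:45311338-45311537, plus strand): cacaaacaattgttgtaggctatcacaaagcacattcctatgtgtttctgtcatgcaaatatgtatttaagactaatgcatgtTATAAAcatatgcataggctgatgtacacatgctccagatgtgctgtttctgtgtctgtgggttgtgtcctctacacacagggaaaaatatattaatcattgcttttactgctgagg
Col18a1 (chr10:77166531-77166730, minus strand): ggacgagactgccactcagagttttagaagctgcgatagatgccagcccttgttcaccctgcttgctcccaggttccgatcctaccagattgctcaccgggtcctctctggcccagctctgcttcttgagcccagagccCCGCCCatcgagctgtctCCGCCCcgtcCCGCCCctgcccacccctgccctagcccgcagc
Col8a1 (chr16:57754738-57754937, minus strand): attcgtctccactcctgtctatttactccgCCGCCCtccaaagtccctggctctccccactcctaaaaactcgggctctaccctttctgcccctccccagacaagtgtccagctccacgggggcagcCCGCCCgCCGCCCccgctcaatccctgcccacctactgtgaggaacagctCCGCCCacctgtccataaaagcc
The *Col1a2* sequence held 1 CCAAT box and 1 GC box, whose first bases lie 109 and 188 bases before the start. The *Col3a1* sequence held 1 TATA box at 117 bases and neither of the other motifs, and its G and C content was 37.5%, against 62.5% to 64.5% in the other 3. *Col18a1* and *Col8a1* held 3 and 4 GC boxes. Among the 36 windows of the same length found for 33 collagen genes, 27.8% held a CCAAT box, 61.1% a GC box and 11.1% a TATA box, and over all 32851 windows of the table the shares were 29.3%, 31% and 9.96%. These matches describe the letters only. *Col4a1* and *Col4a2* stand head to head, and their windows of 300 bases around the start overlapped by 78 bases, so that the pair shares its start region. *Col3a1* and *Col5a2*, and *Col6a1* and *Col6a2*, are also neighbors with no other protein-coding gene between them.

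Intensities had been normalized by the authors and were analyzed as log2(value + 50), on which a fold change of a dim probe is held back. Values under 2, which made up 46.1% of the probes on every array, were read as not above background. The brighter part of the array, 22641 probes whose mean reached the median of all probe means, was tested by limma, and p-values were adjusted over all of them by the method of Benjamini and Hochberg. Of these, 28 passed an adjusted p of 0.05, a background of 0.124% (0.0751% lower in *Chrm3*-/- tumors). *Chrm3* itself was read by 1 probe at 25.1, 32.1 and 21.9 in *Chrm3*-/- tumors, against 9.06, 1.80 and 1.93 in WT tumors. Where this probe lies relative to the deleted part is not stated in the sources used, and it checks neither genotype nor labels. *Chrm3*-/- replicate 1 stood apart from the other 5 arrays on the first principal component, which held 52.8% of the variance. An exact permutation test of 3 against 3 samples cannot go below p = 0.1, so that the limma fit was used for single probes.

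Of the 91 collagen probes, 48 from 31 genes were tested and 43 were too dim. The genes with no tested probe were *Col4a3*, *Col4a4*, *Col4a6*, *Col6a6*, *Col8a2*, *Col9a3*, *Col10a1*, *Col13a1*, *Col19a1* and *Col28a1*. No untested probe read above 12.0 on any array, and 22 of them were under 2 on all 6. *Col6a3*, *Col12a1* and *Col20a1*, the other collagens of the mouse gene table used here, had no probe named on the array. No collagen probe passed the adjusted p in limma (smallest adjusted p = 0.228, *Col1a1*). At an unadjusted p under 0.05 there were 14 of the 48, all lower in *Chrm3*-/- tumors (29.2%), against 2.81% of all tested probes lower at that p, 2.01% higher and 4.82% in either direction. Of these 14, 3 (1 probe each of *Col17a1*, *Col22a1* and *Col24a1*) passed the brightness filter through their WT mean alone, as did 1 probe of *Col9a1*, while 1 probe of *Col11a1* passed through its *Chrm3*-/- mean alone. Such probes had to differ, so the shares of members are a description. On 16 of the 48 all 3 *Chrm3*-/- arrays read below all 3 WT arrays, with values under 2 set to 2, and on none did they all read above. Over all tested probes 5.46% lay wholly below and 5.1% wholly above. Counted over all 91 probes, dim ones included, the 16 make 17.6%, against 3.02% of all 45281 probes. The mean was below WT on 38 of the 48 (79.2%) and on 47.6% of all tested probes, and the median log2 fold change was -0.24 against 0.01. No collagen probe had a log2 fold change above 0.13.

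**Figure D1:**
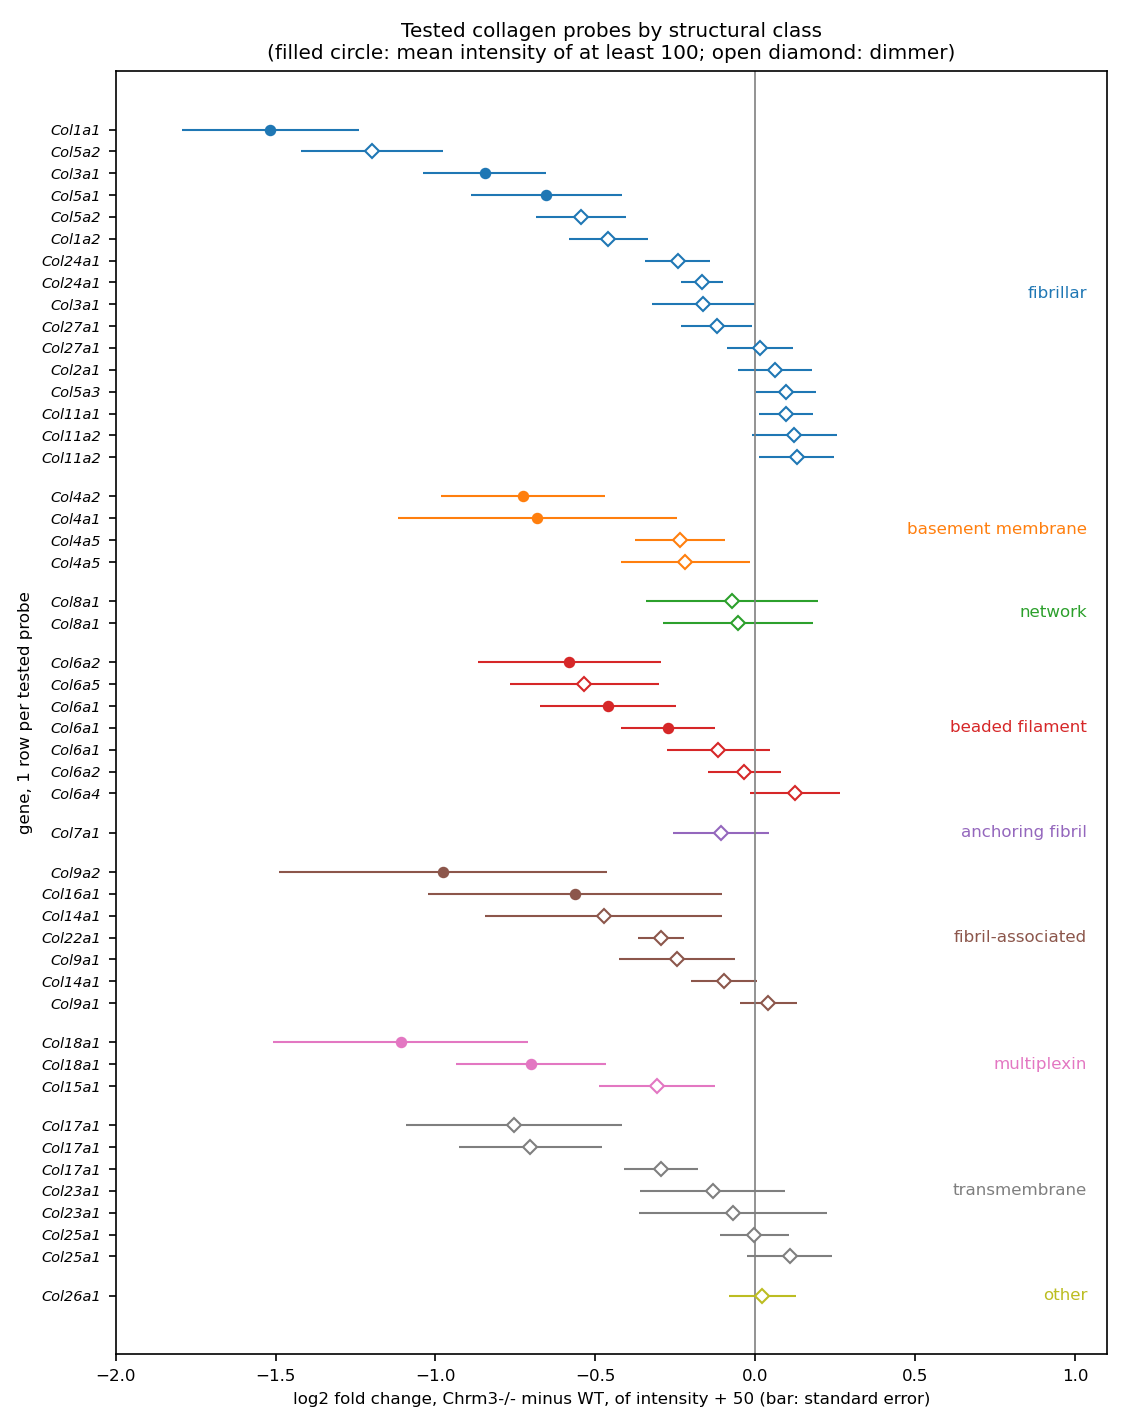
Log2 fold changes of intensity + 50, *Chrm3*-/- minus WT, for the 48 tested collagen probes, 1 row per probe, with the standard error from limma as a bar and the structural class in color. Filled circles have a mean intensity of at least 100 and all lie below 0, whereas the 10 probes above 0 are all dim and reach no more than 0.13.

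Among the fibrillar collagens, *Col1a1*, *Col1a2*, *Col3a1*, *Col5a1* and *Col5a2* read lower in *Chrm3*-/- tumors, and those of types II and XI, which are known from cartilage, were near background. *Col1a1*, the alpha 1 chain of collagen I, read 151, 332 and 199 in *Chrm3*-/- tumors, against 655, 884 and 632 in WT tumors. *Chrm3*-/- replicate 2 was the highest of its group, and the groups did not overlap. The means were 228 ± 93.7 and 723 ± 139 (SD, n = 3 each), and the log2 fold change was -1.52 (standard error 0.28, adjusted p = 0.228 from limma), the lowest in the family. *Col1a2*, the partner chain in the same trimer, read 17.0, 18.6 and 18.3 in *Chrm3*-/- tumors, against 54.1, 39.8 and 37.1 in WT tumors. The 3 *Chrm3*-/- values lay within 2 units of each other and below all WT values. Its log2 fold change was -0.46 (standard error 0.12, adjusted p = 0.707) on the scale with the offset and -1.26 on a plain log2 scale, where *Col1a1* had -1.73.

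*Col3a1*, which forms fibrils together with collagen I in soft tissues, read 500, 634 and 474 in *Chrm3*-/- tumors, against 1168, 1012 and 836 in WT tumors. The genotypes did not overlap, and the log2 fold change was -0.85 (standard error 0.19, adjusted p = 0.46). Its second probe was dim, with 26.0, 36.0 and 18.2 in *Chrm3*-/- tumors and 22.6, 39.4 and 46.3 in WT tumors, which overlapped (log2 fold change -0.16, standard error 0.16). *Col5a1* and *Col5a2* encode the chains of collagen V, which controls the width of collagen I fibrils. *Col5a1* read 445, 731 and 523 in *Chrm3*-/- tumors, against 762, 1127 and 850 in WT tumors. The groups were apart by a narrow margin (log2 fold change -0.65, standard error 0.24, adjusted p = 0.968).

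*Col5a2* had 2 tested probes, both with all *Chrm3*-/- arrays below all WT arrays. The first read 1.75, 10.3 and 6.03 in *Chrm3*-/- tumors, against 98.2, 106 and 41.8 in WT tumors, and was thus close to background in one genotype and not in the other. Its log2 fold change was -1.20 (standard error 0.22, adjusted p = 0.244) with the offset. On a plain log2 scale it was -3.92 with the *Chrm3*-/- value under 2 set to 2, which bounds the difference. The other read 8.62, 23.9 and 10.2 in *Chrm3*-/- tumors, against 51.3, 42.8 and 36.3 in WT tumors (log2 fold change -0.55, standard error 0.14, adjusted p = 0.632). The other 3 probes of the gene were under 2 on all 6 arrays. *Col24a1*, a minor fibrillar collagen, lay wholly below WT on both tested probes, but at low values. One read 1.95, 12.4 and 1.54 in *Chrm3*-/- tumors and 15.2, 16.4 and 13.9 in WT tumors. The other was under 2 in all *Chrm3*-/- tumors and read 9.14, 6.80 and 8.19 in WT tumors, at least 1.12-fold lower on the scale of value + 50.

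The other fibrillar genes were dim. *Col2a1*, *Col5a3*, *Col11a1*, *Col11a2* and *Col27a1* read no more than 26.1 on any array, and the log2 fold changes of their tested probes were -0.12 to 0.13, with overlap of the genotypes on each. Over the 11 fibrillar genes, by the probe with the highest mean of each, 7 were lower and 4 higher, with a median log2 fold change of -0.24. On 6 of them the genotypes did not overlap, all with *Chrm3*-/- below. For all 12195 named genes with a tested probe the median was 0.01, and 5.72% lay wholly below.

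**Figure D2:**
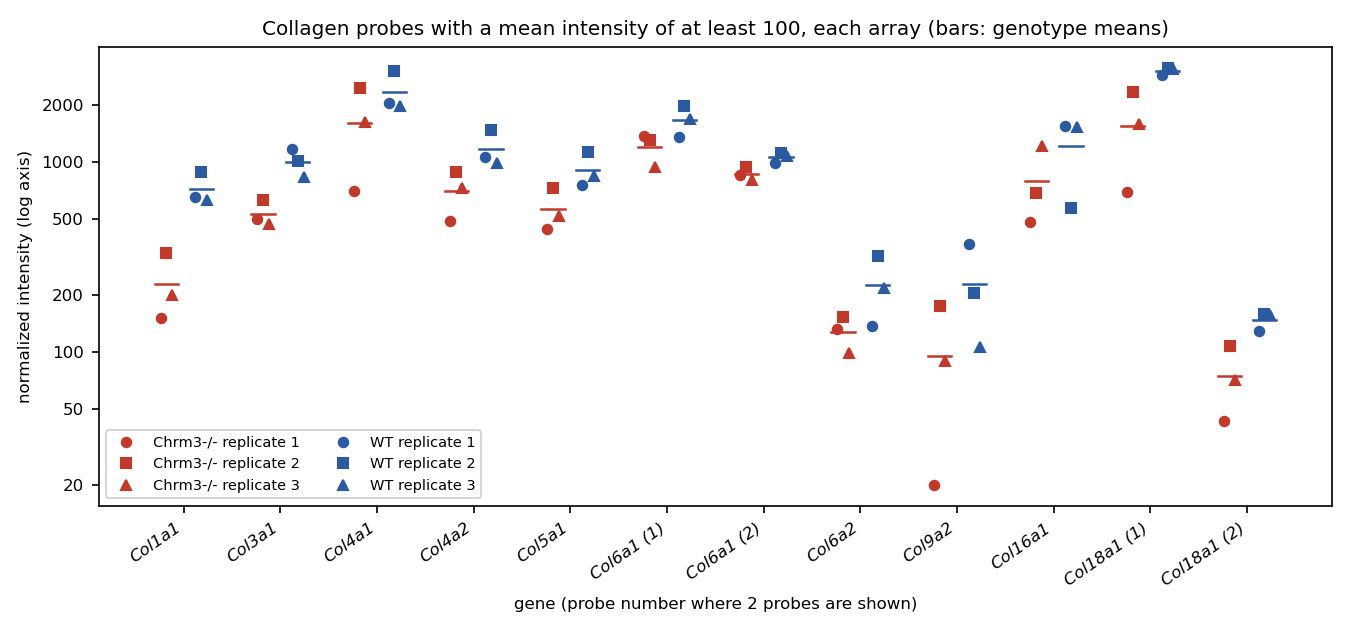
Normalized intensity on a log axis for the 12 collagen probes with a mean of at least 100, with *Chrm3*-/- arrays in red and WT arrays in blue, symbols for replicates and bars for genotype means. On 7 of the 12 probes the red points lie wholly below the blue ones, and *Col1a1* has the widest gap relative to its level.

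In the basement membrane class, the paired chains of the main collagen IV trimer were read by 1 bright probe each, and *Chrm3*-/- replicate 1 was the lowest array for both. *Col4a1* read 701, 2472 and 1624 in *Chrm3*-/- tumors, against 2055, 3009 and 1982 in WT tumors. *Chrm3*-/- replicate 2 lay inside the WT range, and the log2 fold change of -0.68 had a standard error of 0.44 (adjusted p = 0.991). *Col4a2* read 491, 886 and 728 in *Chrm3*-/- tumors, against 1068, 1476 and 994 in WT tumors, with no overlap (log2 fold change -0.73, standard error 0.26, adjusted p = 0.936). Without *Chrm3*-/- replicate 1 the values were -0.20 for *Col4a1* and -0.51 for *Col4a2*, so that the larger part of the *Col4a1* difference came with that array. The order of arrays was the same for both genes in *Chrm3*-/- tumors (replicate 2 highest, replicate 1 lowest), and replicate 2 was the highest WT array for both.

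*Col4a5*, a chain of another collagen IV trimer, read lower at both tested probes with overlap, by -0.22 on the log2 scale at the brighter probe (standard error 0.20) and by -0.24 at the other one (standard error 0.14). *Col4a3*, *Col4a4* and *Col4a6*, the other chains, were not above 7.79 on any array. Among 3 tested genes of this class all were lower (median -0.68), and over all 6, dim ones included, the median was -0.12.

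*Col18a1*, whose product carries the endostatin fragment at its end, had 2 bright probes, and both lay wholly below WT. The first read 695, 2339 and 1592 in *Chrm3*-/- tumors, against 2883, 3137 and 3092 in WT tumors. The WT values lay close together and the *Chrm3*-/- values were spread widely, with the lowest in replicate 1 (log2 fold change -1.11, standard error 0.40, adjusted p = 0.958). The second read 43.6, 108 and 71.7 in *Chrm3*-/- tumors, against 129, 158 and 157 in WT tumors (log2 fold change -0.70, standard error 0.23, adjusted p = 0.928). The order of the *Chrm3*-/- arrays was thus the same at both probes, and without replicate 1 their log2 fold changes were -0.64 and -0.51. The remaining probe of the gene was too dim to be tested. *Col15a1*, the other multiplexin, read 39.2, 29.7 and 44.8 in *Chrm3*-/- tumors, against 47.0, 83.7 and 48.3 in WT tumors, apart by a small margin (log2 fold change -0.31, standard error 0.18, adjusted p = 0.991).

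Of the collagen VI genes, *Col6a1* and *Col6a2* had probes with a mean of at least 100. *Col6a1* had 2 bright probes. At the first, *Chrm3*-/- tumors read 1369, 1302 and 941 and WT tumors 1360, 1986 and 1681, with overlap (log2 fold change -0.46, standard error 0.21, adjusted p = 0.991). At the second, they read 860, 939 and 810 in *Chrm3*-/- tumors and 987, 1115 and 1080 in WT tumors, with no overlap, although the log2 fold change was only -0.27 (standard error 0.15, adjusted p = 0.991). *Col6a2*, the partner chain, read 132, 153 and 99.1 in *Chrm3*-/- tumors, against 136, 321 and 217 in WT tumors, and the lowest WT array lay inside the *Chrm3*-/- range (log2 fold change -0.58, standard error 0.29, adjusted p = 0.991). *Chrm3*-/- replicate 3 was the lowest array at these 3 probes. *Col6a5* had -0.53 (standard error 0.23) and *Col6a4* 0.12 (standard error 0.14), both with overlap. The dim probes of *Col6a1* and *Col6a2* had -0.12 (standard error 0.16) and -0.03 (standard error 0.11).

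The network class rested on *Col8a1*, made by vascular and stromal cells, since *Col8a2* and *Col10a1* were too dim. *Col8a1* read 69.0, 69.1 and 49.0 in *Chrm3*-/- tumors, against 35.7, 75.7 and 95.9 in WT tumors. The WT values enclosed all *Chrm3*-/- values, and the log2 fold change was -0.05 (standard error 0.24, adjusted p = 0.991). The dimmer probe of the gene gave -0.07 (standard error 0.27). *Col7a1*, the anchoring fibril collagen, read 8.98, 17.0 and 12.8 in *Chrm3*-/- tumors, against 13.2, 33.3 and 8.82 in WT tumors, with overlap (log2 fold change -0.11, standard error 0.15).

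Among the fibril-associated collagens, *Col9a2* and *Col16a1* were bright and spread widely within a genotype, and the others were dim. *Col16a1* read 482, 685 and 1210 in *Chrm3*-/- tumors, against 1556, 577 and 1527 in WT tumors, so that WT replicate 2 lay below 2 of the 3 *Chrm3*-/- arrays (log2 fold change -0.56, standard error 0.46, adjusted p = 0.991). Its log2 fold change ran from -1.01 without WT replicate 2 to -0.28 without *Chrm3*-/- replicate 1, and was 0.02 with array weights, the other direction. *Col9a2*, a chain of collagen IX, read 19.98, 176 and 89.3 in *Chrm3*-/- tumors, against 369, 205 and 107 in WT tumors, with overlap (log2 fold change -0.98, standard error 0.51, adjusted p = 0.991). The 3 values of each genotype were spread over a wide range. *Col22a1*, known from tissue junctions such as that of muscle and tendon, was dim but apart, with 1.104, 1.91 and 2.34 in *Chrm3*-/- tumors and 14.6, 14.9 and 11.2 in WT tumors (log2 fold change -0.30, standard error 0.07, adjusted p = 0.532). Both *Chrm3*-/- values under 2 are not above background. *Col14a1* had -0.47 (standard error 0.37) and -0.10 (standard error 0.10) at its tested probes, with overlap at both. *Col9a1*, another chain of collagen IX, had 0.04 (standard error 0.09) at its brighter probe. At the other it was under 2 in all *Chrm3*-/- tumors and read 32.9, 2.59 and 1.67 in WT tumors, at least 1.17-fold lower on the scale of value + 50. That bound came mostly from WT replicate 1, and the genotypes overlapped, since WT replicate 3 was also under 2. Of 5 tested genes in this class 4 were lower (median -0.47).

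*Col17a1*, a collagen of the hemidesmosomes that hold epithelial cells to the basement membrane, was the transmembrane member with the largest differences, and its 3 probes were all lower. The first read 18.04, 18.6 and 82.5 in *Chrm3*-/- tumors, against 150, 81.8 and 62.7 in WT tumors, where *Chrm3*-/- replicate 3 lay within the WT range (log2 fold change -0.75, standard error 0.34, adjusted p = 0.991). The second read 7.92, 1.71 and 32.2 in *Chrm3*-/- tumors, against 69.2, 58.3 and 32.4 in WT tumors, so that the groups only just failed to overlap (log2 fold change -0.70, standard error 0.22, adjusted p = 0.882). The dimmest was near background in *Chrm3*-/- tumors, with 1.83, 4.33 and 1.96, and read 22.4, 17.7 and 5.11 in WT tumors (log2 fold change -0.30, standard error 0.12, adjusted p = 0.991), with 2 *Chrm3*-/- values under 2. WT replicate 3 was the lowest WT array at all 3 probes. *Col23a1* and *Col25a1* had log2 fold changes of -0.13 to 0.11 with overlap, as did *Col26a1* with 0.02.

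Set side by side, the class medians ran from -0.71 for the 2 multiplexins and -0.68 for basement membrane collagens through -0.50 for beaded filaments and -0.47 for fibril-associated collagens to -0.24 for fibrillar, -0.11 for anchoring fibril, -0.07 for transmembrane, -0.05 for network and 0.02 for other collagens. This order belongs to the offset of 50. On a plain log2 scale the fibril-associated median was -1.56, the fibrillar -0.91, the multiplexin -0.88, the basement membrane -0.71 and the transmembrane 0.03. The medians rest on 1 to 11 genes, and those of the network, anchoring fibril and other classes on 1 gene each. Within the fibrillar class, the 3 genes with a mean of at least 100 had a median of -0.85, against -0.70 for the 2 of the basement membrane class. The 10 collagen genes with a probe at that level were all lower. Over all tested probes at that level, 50.6% were lower, and 7 of the 12 collagen probes (58.3%) lay wholly below WT, against 5.76%. A probe of *Col18a1*, 1 of the 7, and that of *Col9a2* reached a mean of 100 through WT alone. Without *Chrm3*-/- replicate 1 the basement membrane median was -0.35 and the fibril-associated median -0.29. Differences between classes were not tested.

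Across the 12 bright probes, *Chrm3*-/- replicate 1 was the lowest of the 3 *Chrm3*-/- arrays on 8, replicate 3 on 4 and replicate 2 on none. Relative to the WT mean, the median over these probes was -1.11 on replicate 1, -0.35 on replicate 2 and -0.76 on replicate 3, whereas over all 10529 probes at that level it was -0.08, 0.03 and 0.00. Replicate 1 lay below every WT array on 11 of the 12, replicate 2 on 8 and replicate 3 on 11, where 42.4%, 30.3% and 26% of all such probes did so. All 3 arrays thus had lower values, to different extents. Without replicate 1, 10 of the 48 tested probes were lower at an unadjusted p under 0.05 in limma and 0 were higher. Over all tested probes 3.75% were lower at that p. Both remaining *Chrm3*-/- arrays read below all WT arrays on 18 of the 48, and on 11% of all tested probes. The median log2 fold change was -0.20 for the collagen probes and 0.01 for all tested probes. None of the 48 passed the adjusted p. *Col1a1* and *Col3a1* then had log2 fold changes of -1.31 and -0.80.

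**Figure D3:**
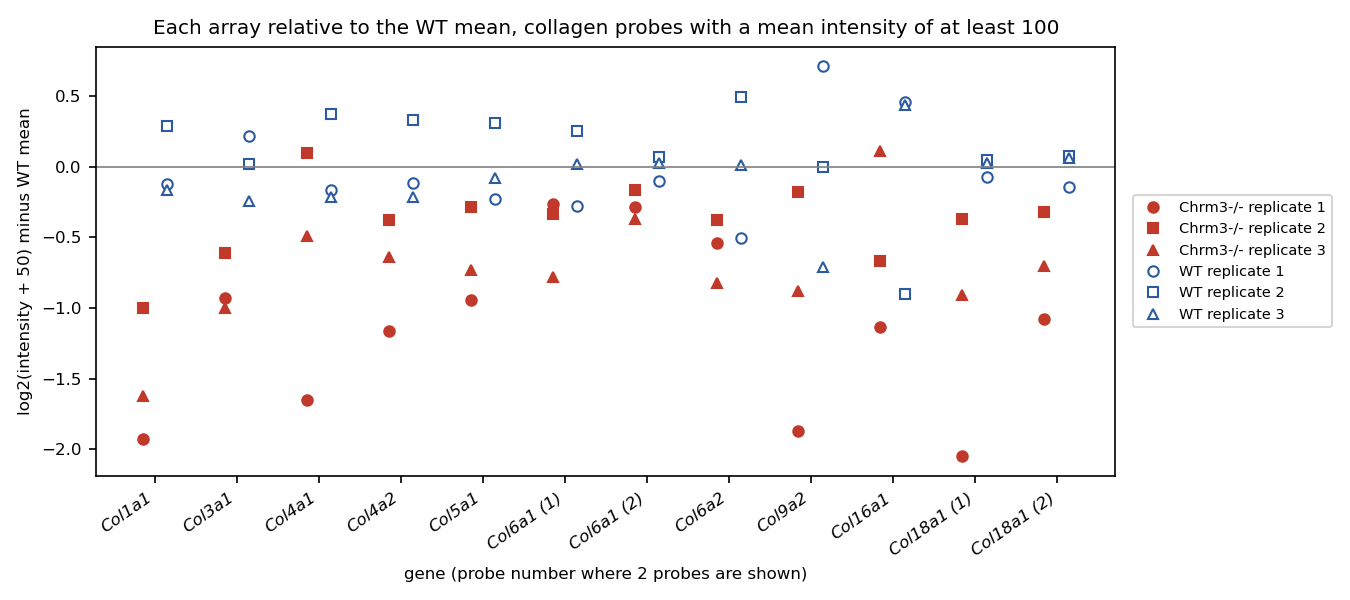
Log2(intensity + 50) of each array minus the WT mean of the same probe, for the 12 collagen probes with a mean of at least 100, with *Chrm3*-/- arrays in filled red and WT arrays in open blue. *Chrm3*-/- replicate 1 reaches -2.05 at *Col18a1* and -1.93 at *Col1a1*, while replicate 2 stays nearest to 0 on most probes.

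Among genes that make collagen, 17 of 26 tested members were lower and 9 higher (median -0.26), 7 lay wholly below WT and 2 wholly above, and none passed the adjusted p in limma. Over all named genes with a tested probe 47.5% were lower, 5.72% lay wholly below and 4.92% wholly above, and 3.02% were lower and 1.98% higher at an unadjusted p under 0.05. The 3 at an unadjusted p under 0.05 on the lower side were *Sparc*, *Lox* and *Serpinh1*. *Sparc*, a matrix protein that binds collagen, read 1840, 2989 and 2046 in *Chrm3*-/- tumors, against 3615, 3666 and 3378 in WT tumors (log2 fold change -0.65, standard error 0.20, adjusted p = 0.844). *Serpinh1*, the chaperone HSP47 of procollagen, read 1294, 2602 and 2190 in *Chrm3*-/- tumors, against 3512, 2616 and 3208 in WT tumors (log2 fold change -0.65, standard error 0.27, adjusted p = 0.991). Both lay wholly below WT, *Serpinh1* by a narrow margin. *Lox*, which crosslinks collagen, read 11.1, 104 and 140 in *Chrm3*-/- tumors, against 215, 238 and 191 in WT tumors (log2 fold change -1.12, standard error 0.42, adjusted p = 0.984). At all 3 genes the lowest array was *Chrm3*-/- replicate 1, which stood farthest from WT.

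*Mia3*, which loads procollagen for export from the endoplasmic reticulum, was the 1 member at an unadjusted p under 0.05 on the higher side, with 166, 137 and 114 in *Chrm3*-/- tumors, against 56.5, 83.8 and 89.5 in WT tumors (log2 fold change 0.58, standard error 0.20, adjusted p = 0.933). The prolyl 4-hydroxylase subunits *P4ha1* and *P4hb* had 0.04 (standard error 0.24) and 0.05 (standard error 0.23). Without *Chrm3*-/- replicate 1 the median of the list was -0.14. Receptors of collagen gave no common direction, with 4 of 8 tested genes lower and 4 higher (median 0.01), no gene wholly apart and none past an adjusted p of 0.05 or an unadjusted p under 0.05 in limma. *Ddr1*, a tyrosine kinase receptor of collagen on epithelial cells, read 304, 850 and 882 in *Chrm3*-/- tumors, against 1177, 951 and 681 in WT tumors (log2 fold change -0.53, standard error 0.41). *Itga2*, an integrin chain that binds collagen, read 21.2, 14.99 and 19.9 in *Chrm3*-/- tumors, against 16.1, 34.7 and 42.0 in WT tumors (log2 fold change -0.22, standard error 0.15). *Itgb1*, the shared beta chain of collagen-binding integrins, read 50.9, 115 and 105 in *Chrm3*-/- tumors, against 41.2, 79.8 and 89.2 in WT tumors (log2 fold change 0.22, standard error 0.27). The genotypes overlapped at all 3 of these receptors. *Adgrg1*, an adhesion receptor that binds collagen III, was near background, with 1.75, 7.11 and 10.0 in *Chrm3*-/- tumors and 5.14, 5.55 and 1.64 in WT tumors.

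**Figure D4:**
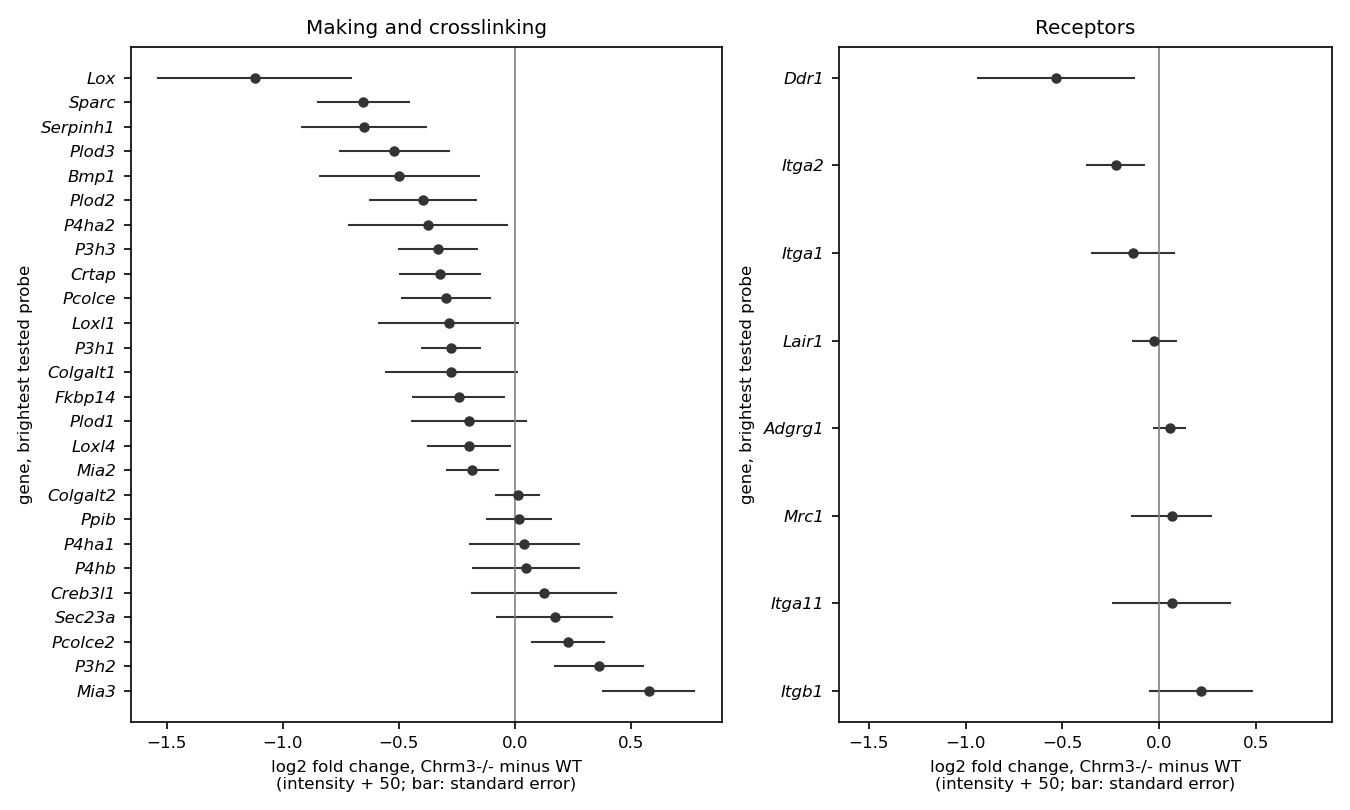
Log2 fold changes of intensity + 50, *Chrm3*-/- minus WT, with standard errors from limma as bars, for the brightest tested probe of 26 genes that make, modify or crosslink collagen and of 8 collagen receptor genes. *Lox*, *Sparc* and *Serpinh1* lie at the low end and *Mia3* at the high end, and the receptors lie on both sides of 0.

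Markers of cell types were read beside these values. Of 10 fibroblast markers 6 were lower and 4 higher (median -0.03), 2 lay wholly below WT (5.72% of all genes did), and none passed the adjusted p. Without *Chrm3*-/- replicate 1, 9 of the 10 were lower, with a median of -0.23. Their summed intensity, most of it from *Dcn* on every array, was 9540 to 12539 in *Chrm3*-/- tumors, against 11961 to 15304 in WT tumors. *Pdgfra*, a growth factor receptor of fibroblasts, read 534, 920 and 587 in *Chrm3*-/- tumors, against 1226, 1361 and 1061 in WT tumors. *Dcn*, the proteoglycan decorin, read 7444, 7520 and 7444 in *Chrm3*-/- tumors, against 12470, 8764 and 9364 in WT tumors. *Pdgfra* and *Dcn* were the 2 below, with log2 fold changes of -0.82 and -0.43. *Thy1* and *Fbln1* were among the 4 higher in the mean (0.505 and 0.201), with overlap. *Lum*, another matrix gene of these cells, also overlapped (-0.136). All 9 smooth muscle markers were higher in the mean (median 0.94), but none lay wholly above WT or had an unadjusted p under 0.05 in limma. Their sum was 9778 to 38947 in *Chrm3*-/- tumors, against 8002 to 12843 in WT tumors, and the highest sum was that of *Chrm3*-/- replicate 1. Without that array the smooth muscle median was 0.18. The sum of *Chrm3*-/- replicate 2 (9778) lay inside the WT range. Endothelial markers summed to 748 to 1068 in *Chrm3*-/- tumors and 893 to 1087 in WT tumors (5 of 7 lower). Epithelial markers summed to 28800 to 37260 in *Chrm3*-/- tumors and 26287 to 32950 in WT tumors, with 3 of 8 lower and 5 higher (median 0.06). Without *Chrm3*-/- replicate 1 their median was -0.085, with 4 lower and 4 higher. *Epcam*, an adhesion protein of epithelial cells, was the only one wholly below WT, but was dim in both genotypes. It read 1.13, 1.06 and 2.03 in *Chrm3*-/- tumors, against 8.67, 11.1 and 12.1 in WT tumors. The bright *Krt8* and *Krt19* had log2 fold changes of 0.07 and 0.53, and *Krt18* had -0.29, all with overlap. Immune markers summed to 200 to 1399 in *Chrm3*-/- tumors and 333 to 511 in WT tumors (0 of 3 lower, but 3 of 3 without *Chrm3*-/- replicate 1), again highest in replicate 1. Glial markers summed to 4.42 to 39.5 in *Chrm3*-/- tumors and 3.86 to 7.13 in WT tumors, near background. Only *Sox10* among them was bright enough to be tested, and it read 28.7 on *Chrm3*-/- replicate 1 and no more than 3.83 elsewhere. The part of tissue makeup in the collagen values was not tested.

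**Figure D5:**
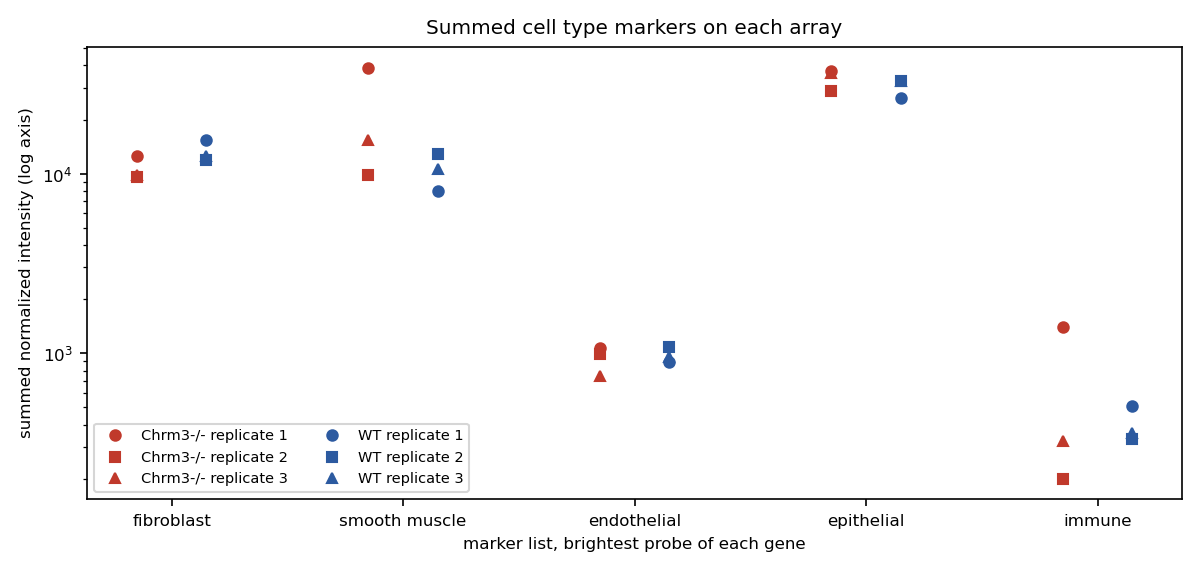
Summed normalized intensity on a log axis of cell type markers, by the brightest probe of each gene, on each *Chrm3*-/- array (red) and WT array (blue). *Chrm3*-/- replicate 1 stands above the other arrays for smooth muscle (38947) and immune markers (1399), and the fibroblast sums overlap between the genotypes.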

How the data were processed

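Colon tumor RNA of 3 *Chrm3*-/- and 3 WT mice was read on Illumina mouse BeadChips (MouseWG-6 v2.2). The authors deposited linear intensity values after a cubic spline normalization, with no background subtracted. The 6 arrays share 1 set of values, and of the steps between consecutive values under 2, 99.3% lay within 1% of the median step. The signals before normalization had 6 columns whose names match no sample, and were not used here.

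Intensities were analyzed as log2(value + 50), with no detection p-values. The 22641 of 45281 probes at or above the median mean log2 value entered a model of genotype alone in limma 3.58.1 under R 4.3.3 (lmFit, then eBayes with its trend option, 4 residual and 2.87 prior degrees of freedom). Two-sided p-values were adjusted after Benjamini-Hochberg, with a threshold of 0.05. The fit was tested on simulated data. The number of arrays limits the precision. Tables and plots were made in Python 3.11.15 with pandas 2.3.3, numpy 2.4.6 and matplotlib 3.10.9.

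Probes were named through the platform annotation (34885 with 1 symbol, 18 with several, 10378 not listed), and list genes also through the GRCm38.p6 gene table. The members, gene lists, classes and tests were chosen with earlier results of these data known. All members are accounted for, and values per array are given for probes that did not overlap or had an unadjusted p under 0.05, for partner chains for the brightest gene of a class, and for up to 4 genes of the making and receptor lists with the smallest p. *Col9a2*, *P4ha1*, *P4hb* and the cell type markers with values were chosen after their values were seen. A gene was represented by its brightest tested probe in counts by gene. Alternatives were other offsets, a plain log2 scale, other filters, no trend, arrayWeights, the methods' t-test, the replicate number as a block, averaged probes and leaving out each array.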

Additional observations from a re-analysis of the deposited data

How the results depend on the processing

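No collagen probe passed the adjusted p of 0.05 in limma on all 6 arrays, with either of the other offsets, on a plain log2 scale, under either other filter, without a trend, with the methods' t-test, with the replicate block or without any 1 array (0 to 0). With arrayWeights 4 passed, namely *Col1a1* (-1.59, adjusted p = 0.00735), *Col3a1* (-0.95, adjusted p = 0.0276) and both tested probes of *Col5a2* (-1.16, adjusted p = 0.0334, and -0.61, adjusted p = 0.0379), and 2 collagen probes were then higher at an unadjusted p under 0.05, against 0 otherwise. The weights came with a warning, and gave 6.12 to *Chrm3*-/- replicate 3, but 0.256 to replicate 1 and 0.386 to replicate 2. Over all probes the count of 28 became 45 with plain log2 values, 12 when unfiltered, 252 with arrayWeights, 9 with the methods' t-test and 4 to 31 without 1 array (4 without *Chrm3*-/- replicate 3 or WT replicate 3, 5 without WT replicate 2 and 6 without WT replicate 1). The 14 lower collagen probes at an unadjusted p under 0.05 were 19 with arrayWeights, 9 with the methods' t-test and 8 to 14 without 1 array. They were 8 without WT replicate 2 and 9 without WT replicate 3 or *Chrm3*-/- replicate 3. At a mean value of at least 100, where 12 were tested, they were 6. In the main limma fit 3.02% of all probes at that level were lower at that p. Apart from leaving out *Chrm3*-/- replicate 1, the share over all probes was not counted for the other settings, so these counts describe the members only.

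Replicate numbers share a number only. Deviations of same-numbered arrays correlated at -0.15, -0.03 and 0.02, and with the replicate block 1 probe passed over all probes and 0 collagen probes, with 12 lower at an unadjusted p under 0.05.

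The fibrillar median of -0.24 was -0.59 with an offset of 16, -0.91 on a plain log2 scale and -0.33 to -0.20 without 1 array. The plain log2 scale gave -1.56 for fibril-associated collagens and -0.33 for *Col7a1*, since the offset holds back dim probes. The basement membrane median was -0.12 with no filter and -0.90 to -0.35 without 1 array, the beaded filament median -0.30 over all tested probes of a gene, and the transmembrane median -0.377 to 0.061 without 1 array and 0.03 on the plain scale. The median of collagen making genes was -0.285 to -0.143 and that of receptors -0.080 to 0.028 without 1 array. For 22 named probes, 311 of 319 values kept direction and side of the threshold. *Col16a1* turned to 0.018 with arrayWeights and *Col8a1* ran from -0.27 to 0.11 without 1 array, and the cause was not tested. Quantile normalization of the signals before normalization was not run. Leaving *Chrm3*-/- replicate 1 out of the marker lists was chosen after seeing the data. Values under 2 were spaced almost evenly and were read as not above background, which limits fold changes of dim probes.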
